A study of Mus musculus with 2 samples.

Results

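Cytotoxic lymphocytes kill target cells with proteins stored in secretory granules, and 8 genes of that store were followed here in blood cells. They are the granzyme genes Gzma, Gzmb, Gzmm and Gzmk, the perforin gene Prf1, and the granule protein genes Nkg7, Ctsw and Cst7. They were taken by symbol, as 8 of the 27998 genes listed in the count tables, and each symbol matched 1 gene identifier. The cells were peripheral blood mononuclear cells of female C57Bl/6 mice aged 10 weeks, either wildtype (Mvk+/+) or compound heterozygous for 2 Mvk alleles, V377I and del91 (MvkV377I/del91). Mvk encodes mevalonate kinase, an enzyme of the pathway to sterols and isoprenoids. For each genotype the blood of 3 mice was pooled and gave 1 library, after a sort for DAPI-negative cells without the erythroid surface marker Ter119. With 1 library per genotype no test is possible, and genotype and library cannot be told apart. Every interval below is a 95% interval that covers counting error only, not differences between mice. Intervals of levels and ratios treat UMIs as independent, so they also leave out differences between cells.

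Granzymes are serine proteases that enter a target cell through pores made by perforin, the product of Prf1. Granzyme B cleaves substrates that start cell death, granzymes A and K are tryptases, and granzyme M has another cleavage preference. Nkg7 encodes a membrane protein of the granules that takes part in their release, Ctsw encodes cathepsin W, a cysteine protease of NK and CD8 T cells, and Cst7 encodes cystatin F, an inhibitor of the cathepsins that activate granzymes. NK cells of mouse blood carry granzyme RNA without prior stimulation, whereas naive CD8 T cells gain most of it after activation.

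On the build GRCm38, Gzma (ENSMUSG00000023132) and Gzmk (ENSMUSG00000042385) both lie on the minus strand of chromosome 13, at 113093825 to 113100981 and 113171608 to 113225908. Gzmb (ENSMUSG00000015437) lies on the minus strand of chromosome 14 from 56258838 to 56262260. Chromosome 10 holds Prf1 (ENSMUSG00000037202, 61297833 to 61304680) and Gzmm (ENSMUSG00000054206, 79689020 to 79695261), both on the plus strand. Nkg7 (ENSMUSG00000004612) lies on the plus strand of chromosome 7 from 43437073 to 43438249. Ctsw (ENSMUSG00000024910) lies on the minus strand of chromosome 19 from 5465043 to 5468507, and Cst7 (ENSMUSG00000068129) on the plus strand of chromosome 2 from 150570415 to 150578944. All 8 are annotated as protein-coding genes.

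T-box factors (T-bet and Eomes) and RUNX3 are known regulators of cytotoxic genes, so the RefSeq promoter windows were searched for their core letters. The T-box core searched was AGGTGT and the RUNX core TGTGGT, each on both strands, and no 2 matches overlapped. Windows were at hand for 7 of the 8 genes. The T-box core stood in the windows of 4 genes (Gzma, Gzmk, Prf1 and Nkg7) and the RUNX core in those of 6 (all but Gzmk). Of 32851 windows of 250 bases before a gene start, 11.8% held the T-box core, 14.1% the RUNX core and 2.13% both. The windows of Gzma, Gzmb and Prf1 are printed because their NK level stood farthest above their CD8 T level in both libraries; they run 5′ to 3′ on the strand of the gene (GRCm38.p6, RefSeq), with the matched letters in capitals on whichever strand they were found.
Gzma, chr13:113100982-113101231, minus strand: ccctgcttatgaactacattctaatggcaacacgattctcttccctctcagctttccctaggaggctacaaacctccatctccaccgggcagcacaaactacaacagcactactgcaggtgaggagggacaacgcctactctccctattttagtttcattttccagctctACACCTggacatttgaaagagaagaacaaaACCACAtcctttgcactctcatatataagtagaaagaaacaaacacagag
Gzmb, chr14:56262335-56262584, minus strand: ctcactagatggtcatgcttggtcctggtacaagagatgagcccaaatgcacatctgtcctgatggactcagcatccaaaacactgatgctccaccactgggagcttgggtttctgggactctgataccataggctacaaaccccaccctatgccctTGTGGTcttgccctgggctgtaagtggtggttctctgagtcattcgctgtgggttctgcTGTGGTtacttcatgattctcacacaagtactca
Prf1, chr10:61297586-61297835, plus strand: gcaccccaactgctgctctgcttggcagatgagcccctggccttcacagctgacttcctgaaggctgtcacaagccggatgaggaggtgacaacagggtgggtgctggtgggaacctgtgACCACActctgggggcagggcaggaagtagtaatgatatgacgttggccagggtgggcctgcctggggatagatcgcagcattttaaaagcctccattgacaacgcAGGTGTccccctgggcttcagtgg
The Gzma window holds both cores on the strand opposite to the gene. The Gzmb window holds the RUNX core 2 times, and the Prf1 window holds the T-box core close to the start. A match of 6 letters is a description of the sequence and not a measured site.

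The libraries held 14513059 (mutant) and 15385199 (wildtype) UMIs, the unique molecular identifiers that count captured RNA molecules. Cells were barcodes with at least 800 UMIs, at least 200 genes and at most 10% mitochondrial UMIs, which gave 4190 mutant and 5225 wildtype cells with medians of 1968 and 2036 UMIs. The UMI limit alone passed 4508 mutant and 5259 wildtype barcodes, so the other limits removed more mutant ones. The target was 2000 cells per library. The libraries shared 28 cell barcodes, against 29.7 that the barcode list gives by chance. A cell took a type from the UMIs of marker genes, none of which is a granule gene. NK cells numbered 194 (mutant, 4.63% of cells) and 884 (wildtype, 16.9%), CD8 T cells 901 and 1293, CD4 T cells 258 and 317, B cells 1250 and 1099, and monocytes 134 and 114. Among genes kept out of the typing, Klrd1 was detected in 86.1% of mutant and 90.4% of wildtype NK cells and in 9.70% and 11.4% of monocytes, but also in 46.2% and 52.6% of CD8 T cells. Itga2, another NK gene of that check, was detected in only 5.67% and 8.48% of NK cells. Tyrobp and Fcer1g were detected in over 97% of NK cells and did not tell them from monocytes, where their levels were higher. Cd74 was in 99.8% and 99.9% of B cells and in 71.6% and 72.8% of monocytes. Cd37, a further B cell gene of the check, was also in 51.6% and 49.1% of NK cells. Ctss, a monocyte gene, was also in 69.4% and 72.7% of B cells. Lat, a T cell gene, was in 68.6% and 69.3% of CD8 T cells and in 23.7% and 23.8% of NK cells. Red cell RNA differed between the libraries, with the haemoglobin genes Hba-a1, Hba-a2, Hbb-bs and Hbb-bt together at 17279 counts per 1000000 UMIs (CPM) in mutant and 274.5 in wildtype NK cells; its part in the results below was not tested.

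Of the 5 cell types, NK cells had the highest level of 6 of the 8 genes in both libraries. In CPM of the UMIs summed over a cell type, Gzma stood at 14556 in mutant and 16671 in wildtype NK cells, and at 176 and 324 in CD8 T cells. Nkg7 stood at 6202 and 6653 in NK cells, 1007 and 1113 in CD8 T cells, 151 and 323 in CD4 T cells and 76.8 and 136 in B cells. Gzmb stood at 1186 and 1688 in NK cells and 23.0 and 46.2 in CD8 T cells. Prf1 showed the same order, with 236 and 281 in NK cells and 9.54 and 12.3 in CD8 T cells. For Ctsw the step was smaller, from 599 and 730 in NK cells to 210 and 224 in CD8 T cells, and for Cst7 it was from 259 and 323 to 83.2 and 97.0.

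Gzmm and Gzmk departed from that order. Gzmm stood at 28.2 (21.8 to 35.9) in mutant and 38.8 (32.6 to 45.9) in wildtype CD8 T cells. In NK cells it stood at 27.5 (14.2 to 48.1) and 20.6 (14.2 to 28.7), from 12 and 34 UMIs. CD8 T cells therefore held the higher Gzmm level in the wildtype library, with intervals that did not meet, while in the mutant library the intervals of both types overlapped. Gzmk was scarce everywhere. It gave 6 mutant and 22 wildtype UMIs in CD8 T cells, 5 and 3 in NK cells and 0 and 8 in CD4 T cells, too few to order the types.

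**Figure D1:**
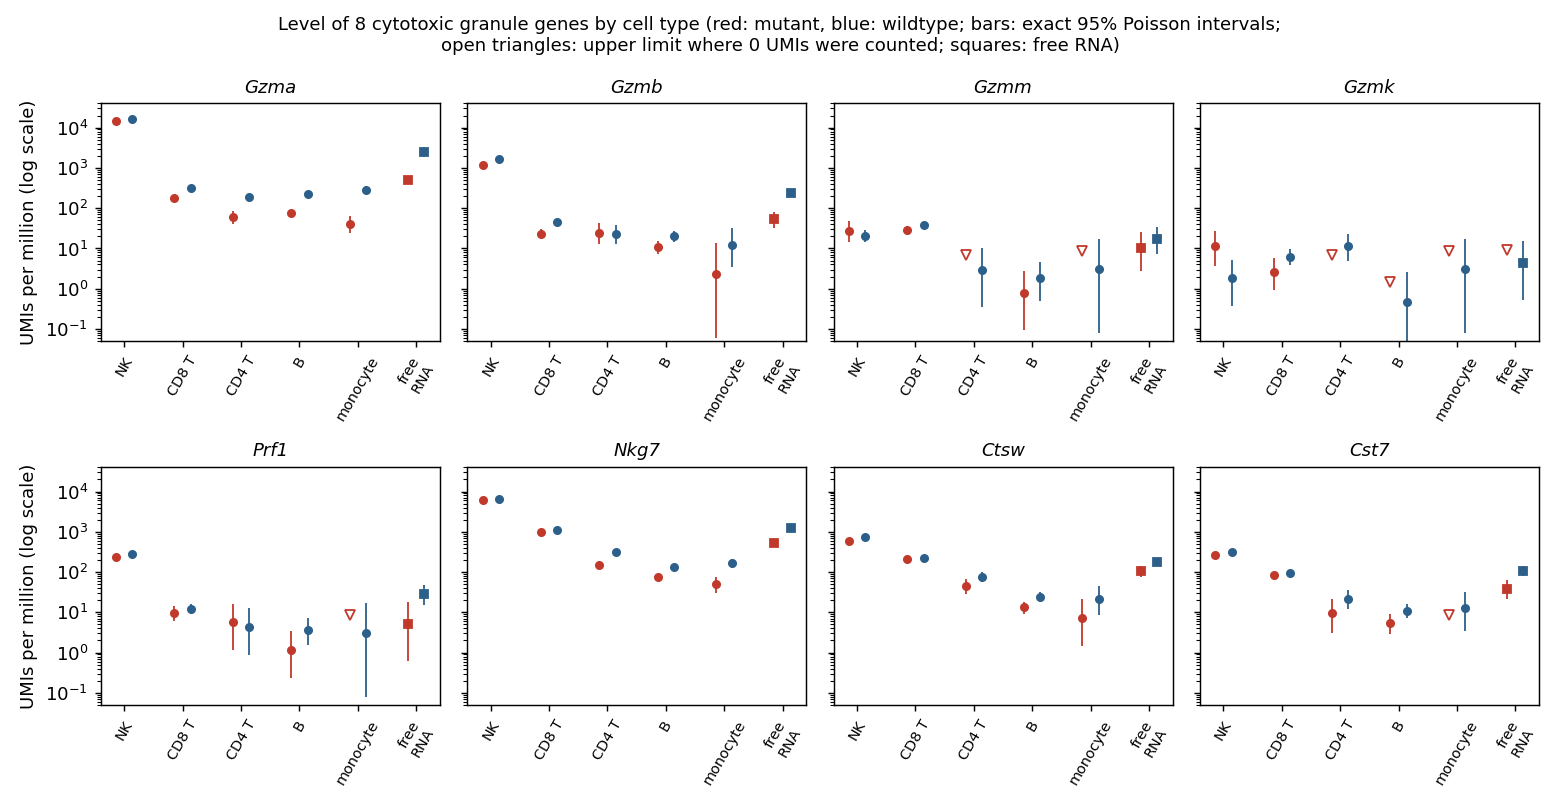
CPM (log axis) of each granule gene by cell type, with mutant in red and wildtype in blue; circles are cell types, squares are barcodes of 1 to 20 UMIs (free RNA), bars are exact 95% Poisson intervals and open triangles give the upper limit where 0 UMIs were counted. NK cells stand highest for all genes but Gzmm and Gzmk, and the blue free RNA squares stand above the red ones.

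RNA released into the cell suspension gives every droplet some UMIs, and the granule genes were abundant in it. In barcodes of 1 to 20 UMIs (395464 mutant and 460573 wildtype UMIs in all), the 8 genes together stood at 1257 CPM (1149 to 1372) in mutant and 4240 (4054 to 4433) in wildtype free RNA. The mutant to wildtype ratio of this free RNA was 0.296 (0.268 to 0.327). It was 0.208 (0.178 to 0.242) for Gzma, 0.224 (0.134 to 0.360) for Gzmb, 0.438 (0.372 to 0.514) for Nkg7, 0.604 (0.406 to 0.887) for Ctsw and 0.349 (0.182 to 0.632) for Cst7. Prf1 (2 and 13 UMIs), Gzmm (4 and 8) and Gzmk (0 and 2) had too few UMIs for a useful ratio.

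B cells are not known to make these granule proteins and gave the level in a type that should lack them. For the 5 genes with enough free RNA UMIs (Gzma, Gzmb, Nkg7, Ctsw and Cst7), the level in B cells was between 0.0853 and 0.138 times the level in free RNA in the wildtype library and between 0.124 and 0.205 times in the mutant. For Gzmm and Prf1, with few UMIs, the mutant fractions were 0.0767 and 0.230. In NK cells the level was 28.6 (mutant) and 6.82 (wildtype) times that of free RNA for Gzma and 11.6 and 5.43 times for Nkg7.

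In CD8 T cells the genes differed in how far their share of cells stood from that of B cells. Thinned to 800 UMIs per cell, Nkg7 was detected in 47.3% (44.0 to 50.6) of mutant and 49.2% (46.4 to 52.0) of wildtype CD8 T cells, against 4.32% and 9.88% of B cells. The unthinned shares in CD8 T cells were 76.5% and 79.0%, at medians of 2441 and 2572 UMIs, while B cells had medians of 1594 and 1582 UMIs. Ctsw was detected in 14.1% and 14.9% of thinned CD8 T cells, against 0.940% and 1.72% of B cells, and Cst7 in 5.96% and 6.95%, against 0.346% and 0.881%. Gzmm reached 1.56% and 1.95% of thinned CD8 T cells, against 0.0214% and 0.130% of B cells. Prf1 reached 0.653% and 1.04%, against 0.0601% and 0.310%, with overlapping intervals in both libraries. Gzmb was near the B cell share, at 1.15% and 2.01% against 0.708% and 1.78%, with overlapping intervals. By level it was higher in CD8 T cells, at 23.0 (17.2 to 30.05) and 46.2 (39.4 to 53.9) CPM. In B cells it stood at 10.9 (7.22 to 15.7) and 20.2 (14.7 to 27.1) CPM. CD8 T cells with 5 or more Gzmb UMIs, 3 mutant and 4 wildtype, held 47.2% and 51.9% of its UMIs. Gzma was near the B cell share as well, with a UMI after thinning in 5.17% of mutant and 13.3% of wildtype CD8 T cells. In B cells the Gzma shares were 3.88% and 16.0%. The wildtype share of CD8 T cells did not exceed that of B cells, although the Gzma level was 324 CPM in CD8 T and 223 in B cells; the few cells that held much of it are described below.

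In NK cells all 6 granule genes with at least 50 UMIs in both libraries together had a mutant to wildtype ratio below 1, and none differed by 1.5-fold or more. Across the 4748 genes measured in NK cells, 9.73% were lower and 3.64% higher by that much. The largest of the 6 differences was in Gzmb, with a ratio of 0.703 (0.638 to 0.772). Gzma had a ratio of 0.873 (0.850 to 0.897), Ctsw 0.821 (0.715 to 0.939), Cst7 0.801 (0.648 to 0.983) and Nkg7 0.932 (0.894 to 0.972). The Prf1 ratio of 0.842 (0.674 to 1.05) had an interval that included 1. The median log2 ratio of the 6 genes was -0.27, beside -0.08 over all measured genes. Both libraries had a median of 29 Gzma UMIs per NK cell, with median depths of 2023 mutant and 1671 wildtype UMIs per cell. Cst7 passed 1.5-fold, at 0.571, without cells that held a marker UMI of another class, and at 0.572 with cells thinned.

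**Figure D2:**
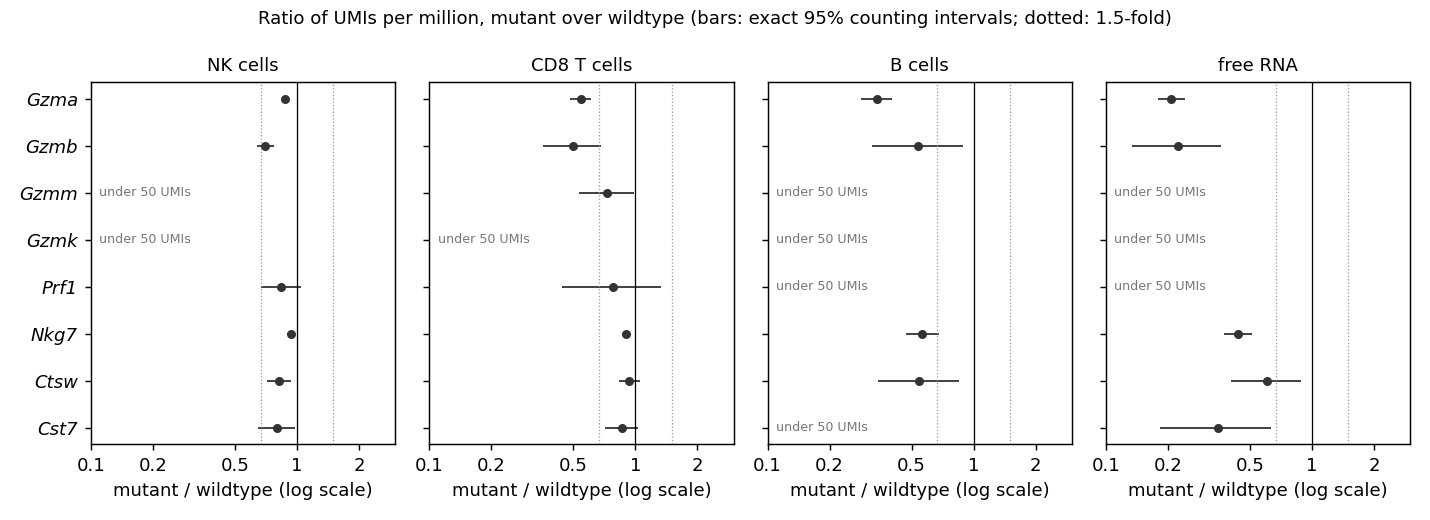
Mutant to wildtype ratio of CPM (log axis) for each granule gene in NK cells, CD8 T cells, B cells and free RNA; points are ratios, bars are exact 95% counting intervals, dotted lines mark 1.5-fold, and genes under 50 UMIs are not drawn. In NK cells the 6 ratios lie between 0.703 and 0.932, nearer to 1 than the Gzma ratios of 0.338 in B cells and 0.208 in free RNA.

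The share of NK cells with a UMI was lower in the mutant library for the same 6 genes once depth was made equal. At 800 UMIs per cell, Gzmb was detected in 49.6% (42.4 to 56.9) of mutant and 57.5% (54.1 to 60.7) of wildtype NK cells, while the unthinned shares were 74.2% and 74.7%. Gzma was detected in 97.2% and 98.9%, and Nkg7 in 97.4% and 98.7%. Ctsw reached 37.6% and 44.4%, Cst7 18.1% and 23.2%, and Prf1 16.4% and 19.6%. The corresponding B cell shares for Gzmb were 0.708% and 1.78%, and for Prf1 0.0601% and 0.310%. The intervals of the 2 libraries overlapped for all 6 genes.

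Counted per cell, 4 or more of the 8 genes were detected in 35.8% (29.1 to 43.0) of mutant and 45.4% (42.1 to 48.7) of wildtype NK cells, as means of 100 draws of 800 UMIs. At least 3 were detected in 74.8% (68.1 to 80.8) and 83.3% (80.7 to 85.7). In CD8 T cells 3 or more were seen in 2.62% of mutant and 4.36% of wildtype cells. No draw found all 8 in an NK cell.

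**Figure D3:**
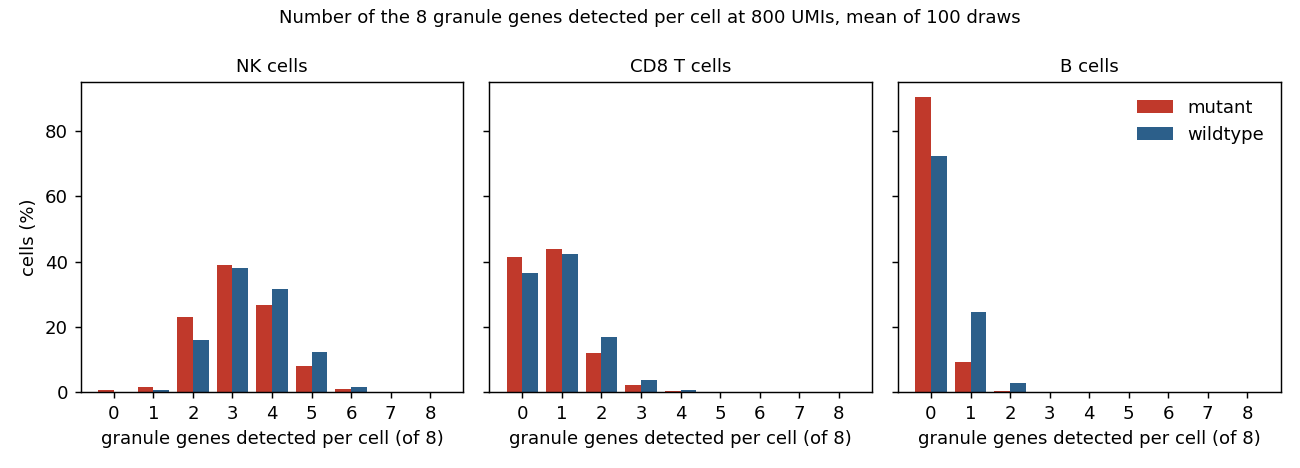
Percent of NK, CD8 T and B cells (y axis) in which 0 to 8 of the granule genes were detected (x axis) at 800 UMIs per cell, as means of 100 draws, with mutant in red and wildtype in blue. NK cells peak at 3 genes in both libraries, 39.0% of mutant and 37.9% of wildtype cells, and B cells at 0.

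Among pairs of genes in NK cells, Gzmb and Prf1, the protease and the pore former, were found together in 10.2% (6.34 to 15.4) of mutant NK cells and in 12.9% (10.7 to 15.2) in the wildtype library. Independent detection would give 8.12% and 11.2%, so the observed share was 1.26 and 1.14 times that value. In CD8 T cells Nkg7 and Ctsw were found together in 7.69% of mutant and 8.71% of wildtype cells, 1.15 and 1.19 times the independent share, and Ctsw and Cst7 in 1.18% and 1.37%, 1.40 and 1.32 times. Other pairs differed, in the order mutant and wildtype. In NK cells Gzma and Gzmb stood at 1.03 and 1.01 times the independent share. In CD8 T cells Gzma and Gzmb stood at 10.01 and 2.525 times, and Prf1 and Ctsw at 0.792 and 0.949. In B cells Nkg7 and Ctsw stood at 1.37 and 0.687 times, and Ctsw and Cst7, in few cells, at 4.65 and 0.251. For both pairs the B cell value was above the CD8 T value in the mutant and below it in the wildtype library. These values describe cells of 1 pool each and carry no test.

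NK cells were divided by their markers into those with more UMIs of early genes (Cd27, Ltb, Emb, Xcl1, Tcf7 and Il7r) and those with more of late genes (Klrg1, Itgam, Cma1, Zeb2, S1pr5 and Cx3cr1). This cut is a range and not a pair of cell types, since 38 mutant and 232 wildtype cells differed by a single UMI. Early cells made up 21.1% (15.6 to 27.6) of mutant and 18.2% (15.7 to 20.9) of wildtype NK cells, and ties of 28 and 124 cells were left out. Gzma was lower in early cells in both libraries, at 7961 against 17198 CPM in the mutant and 10069 against 19138 in the wildtype, ratios of 0.463 (0.429 to 0.499) and 0.526 (0.507 to 0.546). Prf1 followed with ratios of 0.505 (0.270 to 0.886) and 0.558 (0.418 to 0.735). Of the 6 measured granule genes, 2 mutant (Gzma and Prf1) and 3 wildtype (with Gzmb) were at least 1.5-fold lower in early cells, where 12.6% and 8.89% of all measured genes were, and none was higher by that much, where 3.69% and 5.78% of all measured genes were.

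Gzmb gave different pictures by level and by share of cells in early and late cells. Its level was 1274 CPM over 125 mutant late cells and 1941 over 599 wildtype ones, a ratio of 0.656 (0.583 to 0.737). In the 41 mutant and 161 wildtype early cells it stood at 1062 and 1073, a ratio of 0.989 (0.790 to 1.23). At 800 UMIs per cell it was detected in 56.0% (46.8 to 64.9) of mutant and 62.4% (58.4 to 66.3) of wildtype late cells, and in 30.2% (16.9 to 46.5) and 43.1% (35.3 to 51.1) of early cells. The larger gap was therefore in late cells by level and in early cells by share, with overlapping intervals of the shares. The difference between the late and the early ratio was not tested, since each rests on 1 library per genotype. Cst7 was also lower in mutant late cells, with a ratio of 0.672 (0.501 to 0.886), against 1.25 (0.803 to 1.89) in early cells. For Gzma the late ratio was 0.899 (0.870 to 0.928) and the early one 0.791 (0.731 to 0.854). Ctsw went the other way from Gzmb, with 0.641 (0.459 to 0.879) in early and 0.879 (0.740 to 1.04) in late cells.

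In CD8 T cells 7 granule genes were measured and all 7 ratios lay below 1, with a median log2 ratio of -0.36 beside 0.02 over all genes. Gzma and Gzmb passed 1.5-fold, both lower in the mutant, and none was higher by that much; over 6844 genes, 2.81% were lower and 2.47% higher. Gzma had a ratio of 0.544 (0.484 to 0.609) and Gzmb of 0.497 (0.358 to 0.682), beside ratios in B cells of 0.338 (0.285 to 0.400) and 0.539 (0.323 to 0.885). Nkg7 had a ratio of 0.905 (0.859 to 0.953), Ctsw 0.937 (0.835 to 1.05), Cst7 0.858 (0.715 to 1.03), Gzmm 0.726 (0.532 to 0.983) and Prf1 0.778 (0.443 to 1.33). Both calls ended when cells over 2.5 times the median depth were left out (0.778 for Gzma and 0.873 for Gzmb), and Gzma turned to 1.07 with the free RNA profile subtracted. That subtraction was scaled on Gzma in B cells, with 2 Gzma-rich mutant B cells among them. Gzmm turned to 1.15 without cells that held a marker UMI of another class and to 1.39 with cells thinned.

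A few cells carried much of the Gzma of CD8 T cells. In the mutant library 8 of 901 CD8 T cells had 5 or more Gzma UMIs and held 278 of the 406 UMIs (68.5%). In the wildtype library 11 of 1293 did and held 556 of 1135 (49.0%), of which 1 cell had 350. Of the 8 mutant cells 7 also had Gzmb UMIs (32 in all), and of the 11 wildtype cells 6 did (79 UMIs). The 8 and 11 cells held 9 and 6 UMIs of NK typing markers, and 3 and 10 of them had 2 or more memory marker UMIs. Without these cells Gzma stood at 56.0 (46.7 to 66.6) CPM in mutant and 167 (153 to 181) in wildtype CD8 T cells, a ratio of 0.336. B cells without such cells stood at 44.5 and 208 CPM. By this measure the remaining CD8 T cells were close to B cells in the mutant and below them in the wildtype library. In UMIs per cell, not adjusted for depth, the remaining CD8 T cells were above B cells in both libraries. They held 128 Gzma UMIs in 893 mutant and 579 in 1282 wildtype cells, against 114 in 1248 and 454 in 1098 B cells. CD8 T cells were deeper, with medians of 2441 and 2572 UMIs against 1594 and 1582 in B cells. In B cells 2 mutant cells held 80 of 194 Gzma UMIs. These had a median of 6920 UMIs and 19 UMIs of NK markers between them, and they remained in the B cell sums. Both had 2 or more memory marker UMIs, as did the 1 wildtype B cell with 5 or more Gzma UMIs.

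**Figure D4:**
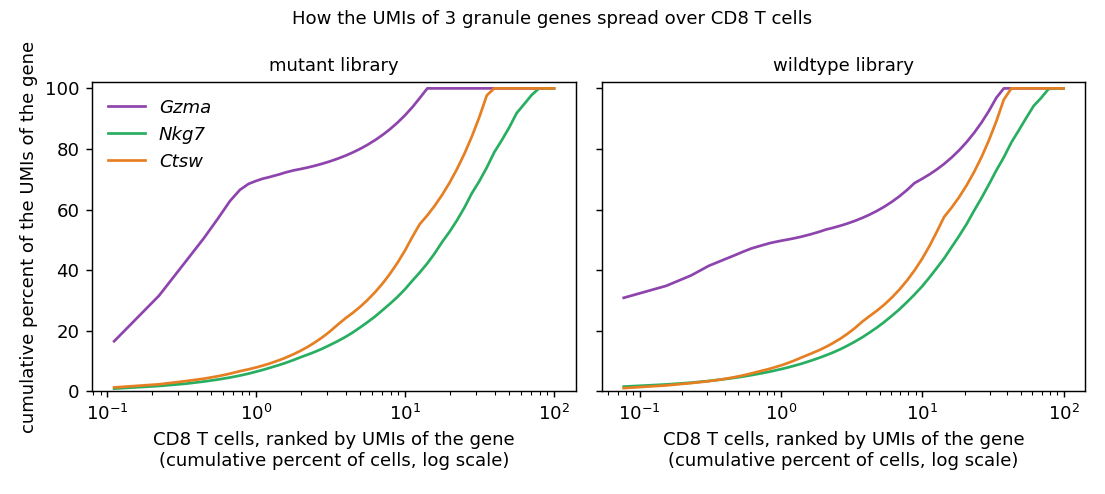
Cumulative percent of the UMIs of Gzma, Nkg7 and Ctsw (y axis) against the cumulative percent of CD8 T cells ranked by UMIs of that gene (x axis, log scale), for the mutant (left) and wildtype (right) library. The Gzma curve starts high, with 68.5% of its mutant and 49.0% of its wildtype UMIs in 8 and 11 cells, whereas Nkg7 and Ctsw rise gradually.

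CD8 T cells with memory marker RNA had higher levels of each granule gene that had enough UMIs, though for Gzma this rested on a few cells. Memory marker cells were those with 2 or more UMIs of Il2rb, Cxcr3, Eomes, Klrk1, Klrc1 and Cd160, 82 of 901 mutant (9.10%) and 165 of 1293 wildtype (12.8%) cells. They were set against 656 and 912 cells with 0 such UMIs, and cells with 1 (163 and 216) were left out. Memory marker cells were deeper, with medians of 3233 against 2302 UMIs (mutant) and 3352 against 2442 (wildtype), and the cut is a range of cells and not a type. The 2 mutant B cells and 1 wildtype B cell rich in Gzma also had 2 or more memory marker UMIs. The part of NK cell RNA or of doublets in this contrast was not tested. By correlation of levels over the cell types, given below, Cd160 was among the 3 genes nearest to Nkg7 and to Cst7. Il2rb was among the 3 nearest to Ctsw. The contrast is therefore a description and not independent support. In the mutant library 4 genes were measured in this contrast and all 4 were at least 1.5-fold higher, as were all 6 in the wildtype library; over all genes 10.2% and 9.97% were, and 11% and 7.93% were lower by that much.

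Gzmm gave 76 UMIs in the 165 wildtype memory marker cells and 25 in the 912 cells without these markers. In wildtype memory marker cells it stood at 132 (104 to 165) CPM against 10.9 (7.02 to 16.0), a ratio of 12.2, and in the mutant at 103 against 11.4, a ratio of 9.05 (4.83 to 17.4) that rests on 46 UMIs. Without the cells of 5 or more Gzma UMIs the wildtype ratio of Gzmm was 12.7. Gzmb was 12.3-fold higher (8.45 to 18.4) in wildtype memory marker cells, 6.73-fold without the cell that held the most granule gene UMIs and 4.22-fold (2.58 to 6.89) without the Gzma-rich cells. Gzma stood at 369 against 67.9 in the mutant and 1123 against 176 in the wildtype, ratios of 5.44 and 6.39, and the wildtype cell with 350 Gzma UMIs was among the memory marker cells. Without that cell the wildtype ratio was 2.98 (2.56 to 3.47). Without all cells of 5 or more Gzma UMIs it was 1.03 (0.815 to 1.29), at 178 against 173 CPM, and the mutant ratio was 1.81 (1.09 to 2.88), at 91.8 against 50.8 CPM. Gzmk gave 5 against 0 UMIs in the mutant and 15 against 3 in the wildtype.

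Nkg7 was present on both sides of this cut. It stood at 1845 (1687 to 2014) against 831 (787 to 878) CPM in the mutant (ratio 2.22) and at 2139 against 824 in the wildtype (2.59, 2.41 to 2.79). At 800 UMIs per cell it was detected in 72.6% and 76.8% of memory marker cells and in 43.1% and 42.3% of the others, well above the B cell shares. Ctsw was 1.69-fold (1.30 to 2.16) and 2.18-fold (1.84 to 2.58) higher, and Cst7 2.34-fold (1.57 to 3.42) and 2.74-fold (2.14 to 3.51) higher. Between genotypes, the Nkg7 ratio in cells without memory markers was 1.01 (0.939 to 1.08) and that of Ctsw 1.05 (0.896 to 1.22), and in memory marker cells they were 0.863 (0.776 to 0.958) and 0.810 (0.620 to 1.05).

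**Figure D5:**
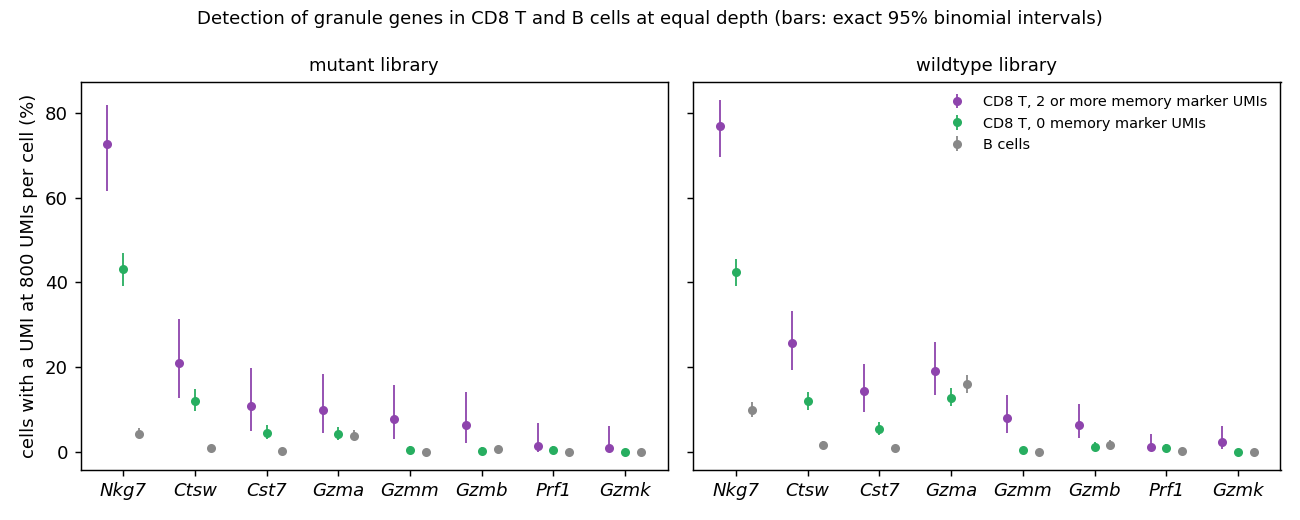
Percent of cells with a UMI (y axis) of each granule gene at 800 UMIs per cell. Shown are CD8 T cells with 2 or more memory marker UMIs (purple), CD8 T cells with 0 (green) and B cells (grey). The mutant library is on the left and the wildtype library on the right. Bars are 95% binomial intervals on the expected number of cells. Nkg7 lies far above B cells in both kinds of CD8 T cell, while the wildtype Gzma shares of 19.1% and 12.9% lie on either side of the B cell share of 16.0%.

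In the other cell types the joint ratio of the 8 genes was nearer to that of free RNA (0.296) than to that of NK cells (0.875). It was 0.452 (0.375 to 0.543) in CD4 T cells, with all 3 measured genes at least 1.5-fold lower where 3.72% of all genes were lower and 2.98% higher. In B cells it was 0.437 (0.390 to 0.488) with 4 of 4 measured genes lower (2.54% of all genes, with 3.43% higher), and in monocytes 0.198 with 2 of 2 lower (7.75% of all genes, with 8.51% higher). T cells with neither coreceptor (931 mutant and 984 wildtype) had 4 of 5 measured genes lower, where 3.09% of all genes were lower and 2.5% higher. Nkg7 stood at 264 and 453 CPM in them, and 42 mutant and 68 wildtype cells with 5 or more UMIs held 58.1% and 59.1% of it. The part of free RNA in these differences was not tested.

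Of 21 further genes of the granule pathway, 12 were measured in NK cells, 2 of them at least 1.5-fold lower in the mutant and none higher, where 9.73% and 3.64% of all genes were. Fasl, the ligand of the death receptor Fas, stood at 234 and 377 CPM, a ratio of 0.620 (0.498 to 0.766). Ifng, the interferon gamma gene, stood at 50.5 and 80.4, a ratio of 0.628 (0.381 to 0.990). In CD8 T cells 12 were measured, with Fasl lower at 11.3 and 19.4 (0.581, 0.355 to 0.925) and Lamp2, a lysosomal membrane protein gene, higher at 20.4 and 13.4 (1.52, 0.992 to 2.33), where 2.81% of all genes were lower and 2.47% higher. Srgn, whose product serglycin packs granzymes, had ratios of 0.961 (0.838 to 1.10) in NK and 1.08 (1.01 to 1.17) in CD8 T cells. No UMI of Gzmd, Gzme, Gzmf, Gzmg or Gzmn was counted in either type, and Gzmc gave 0 and 3 UMIs in NK cells and 2 and 22 in CD8 T cells.

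Across 5 cell types in 2 libraries (10 values of log2 of CPM plus 10, which share libraries and free RNA), the profiles of the genes were correlated. Gzmb and Prf1 had a Pearson r of 0.995 and Nkg7 and Cst7 one of 0.996, while Gzma and Gzmm had 0.627. Across these pairs r was also high, at 0.912 for Gzmb and Nkg7 and 0.893 for Prf1 and Cst7. Whether the genes form groups was not tested. The genes nearest to Prf1 were Klra3, Serpinb9 and Dapk2 (r from 0.991 to 0.995), and those nearest to Nkg7 were Cd160, Ccl5 and Klrd1 (0.981 to 0.985). Klre1, which served to type NK cells, Klra7 and Klra1 were nearest to Gzma, and Qrfp, Klre1 and Serpinb9 to Gzmb. F2r, Sla2 and Il2rb were nearest to Ctsw, Klrd1, Cd160 and Peak1 to Cst7, and Dnajc15, Zfp945 and Runx3 to Gzmm (0.899 to 0.926). Cd160 and Il2rb also served as memory markers of CD8 T cells. Gzmk had fewer than 200 UMIs in these cells, so its neighbours are not given.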

How the data were processed

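The deposited values were raw UMI counts per gene and barcode from 10x Chromium 3' v2 libraries, 1 per genotype. The submitters' processing notes name Cell Ranger 2.1.1 and the build mm10. The matrices held 27998 genes and 737280 barcodes each, and how reads shared by near-identical genes were counted is not given in the sources used here.

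A cell took the class (NK, T, B or monocyte) with the most marker UMIs when it had at least 2 and every other class had at most 1/3 of that number. T cells with Cd8a or Cd8b1 and no Cd4 were CD8 T cells, and the reverse gave CD4 T cells. Mixed-marker cells (268 mutant and 305 wildtype) and cells with few markers (218 and 164) were left out of the types, and no doublet caller was run. UMIs were summed per cell type and library and given per 1000000 (CPM). Levels carry exact Poisson intervals, ratios exact conditional (Clopper-Pearson) intervals and shares Clopper-Pearson intervals, all at 95%. For thinned shares the expected number of cells, which need not be whole, entered the interval, so these are not exact. A gene was measured with 50 UMIs or more in both libraries together and called at 1.5-fold. Shares are the mean over all possible draws of 800 UMIs per cell. The gene lists and the named genes followed a written rule: all 8 granule genes, the 21 pathway genes when 1.5-fold apart, and the 3 nearest genes by profile. The genes and lists were chosen with earlier results of these data known. The intervals of ratios were checked by simulation with known ratios, drawn from the same counting model that the intervals assume. The simulation left out the clustering of UMIs in a few cells, so it cannot tell how the intervals hold there. Python 3.11.15, numpy 2.4.6, scipy 1.17.1, pandas 2.3.3 and matplotlib 3.10.9 were used.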

Additional observations from a re-analysis of the deposited data

Results flagged for a closer look

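Gzmb was also found outside the typed cells. In 15 mutant cells with 2 or more UMIs of the basophil markers Mcpt8, Cd200r3 and Gata2, cells that no comparison above uses, Gzmb stood at 3863 CPM (3237 to 4575), against 84.6 (10.3 to 306) from 2 UMIs in 12 such wildtype cells. Of its 134 UMIs, 96 and 37 came from 2 cells. Prf1 and Gzma gave 0 UMIs in the mutant cells.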

How the results depend on the processing

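The ratios between genotypes were recomputed under 12 other settings, 2 of them chosen after seeing the data (leaving out cells with 5 or more Gzma UMIs, and the cell with the most granule gene UMIs). The settings reuse the same cells of 2 libraries, so the cases counted here are not independent. Over all measured genes the main median ratio was 0.949 in NK and 1.01 in CD8 T cells, and the share below 1 was not counted. Ratios of the measured granule genes lay below 1 in 72 of 72 cases in NK and 78 of 81 in CD8 T cells. The exceptions were Gzma in CD8 T cells with free RNA subtracted (1.07), where the subtraction sets Gzma in B cells to 0, and Gzmm in CD8 T cells without cells holding another class's marker (1.15) and with cells thinned (1.39). For all cell types the subtraction was scaled on Gzma in B cells, at 0.148 (mutant) and 0.0912 (wildtype) times free RNA. The mutant B cells included the 2 cells that held 80 of 194 Gzma UMIs. A subtraction without those 2 cells was not run. The joint ratio of the 8 genes in NK cells was 0.830 without cells holding another class's marker, 0.896 in cells of 1500 UMIs or more, 0.923 centred on the median gene and 0.940 with free RNA subtracted. The number at least 1.5-fold lower in NK cells was 1 (Cst7, at 0.571 and 0.572) without such cells and when thinned. In CD8 T cells the joint ratio was 0.902 without cells over 2.5 times the median depth, 0.866 without the top cell, 0.979 with free RNA subtracted and 0.867 as a mean over cells. The number lower there was 0, 1 and 1 without the deep cells, when thinned and with free RNA subtracted, and 3 (with Prf1, at 0.621) as a mean over cells. Within CD8 T cells, the memory marker ratio without cells of 5 or more Gzma UMIs was 1.81 (mutant) and 1.03 (wildtype) for Gzma, 4.22 for wildtype Gzmb and 2.40 for wildtype Nkg7; without the top cell it was 2.98 for wildtype Gzma and 6.73 for Gzmb. In B cells the joint ratio was 0.305, 0.290, 0.321, 0.379, 0.349 and 0.336 (other-class markers, deep cells, Gzma-rich cells or the top cell left out, thinned, mean over cells). It was 0.371 in CD4 T cells and 0.298 in monocytes without other-class markers, and 0.332 in monocytes when thinned. Nkg7 was detected in 46.4% of wildtype CD8 T cells without other-class markers, and the mutant free RNA level was 1410 in barcodes of 21 to 100 UMIs. The cause was not tested in any of these. Depth limits Gzmk and Gzmm most: 3 counts, the limit of a count of 0, equal 6.88 CPM in mutant NK cells. No paired analysis was possible because each genotype had 1 library.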
